A study of Homo sapiens with 6 samples.

Results

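Mitochondrial ribosomal proteins were taken as the genes whose symbol is MRPL or MRPS followed by a number and at most 1 letter, without pseudogenes. Of 27452 rows in the deposited count table, 78 met this rule. By their place in the assembled ribosome, 51 encode proteins of the large subunit, among them MRPS30 and MRPS18A in spite of their symbols, and 26 encode proteins of the small subunit. MRPS36 carries the symbol but is known as a component of the α-ketoglutarate dehydrogenase complex. RNA sequencing compared lines that carry the label HepG2, a widely used liver cancer line of human origin, and that were made with a control short hairpin RNA (control shRNA) or with one against STAT3 (STAT3 shRNA), a transcription factor activated by cytokines. Each group had 3 libraries, numbered 1 to 3 in the labels, and no other allele, agent or time is named. The labels do not say whether libraries of a group came from separate cultures, clones or hairpins, so the p-values rest on a spread between libraries that may be technical alone.

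Mitochondria translate the few proteins of their own genome on ribosomes that differ from those of the cytosol. The ribosomal RNAs come from the mitochondrial genome, while every protein of both subunits is encoded in the nucleus, made in the cytosol and imported. Some of these proteins have counterparts in bacterial ribosomes and others were added in the mitochondrial lineage. The products of these ribosomes are core subunits of the respiratory chain and of ATP synthase, on which liver cells rely for oxidative metabolism.

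Libraries held 17408543 to 25862027 counts, of which 88413 to 126643 fell on the mitochondrial ribosomal protein genes. STAT3 fell by 2.82 ± 0.085 (SE) on the log2 scale (edgeR quasi-likelihood test, adjusted p = 2.19e-07), and its 3 STAT3 shRNA libraries lay below all 3 control libraries. The labelled cell type was not borne out by its markers: of 10 genes that mark hepatocytes or liver cancer lines, 8 had at most 3 counts in every library or no row, and ALB, the serum albumin gene, had counts of 2, 0 and 0 in control libraries 1 to 3 and of 0, 0 and 3 with the STAT3 shRNA. The sum of the hepatocyte list was 2.22 to 3.95 CPM in the control and 5.67 to 8.64 CPM in the STAT3 shRNA libraries (CPM, counts divided by the TMM-scaled library size). That sum followed HNF4A, a liver transcription factor (mean 1.51 and 6.58 CPM, called higher), while TF, the other tested gene of the list, had 1.59 and 0.806 CPM and was not called. The sum of the fibroblast list was 53.2 to 61.1 and 35.3 to 37.2 CPM. It followed COL1A1, a collagen gene (mean 40.3 and 15.3 CPM, called lower), while DCN (11.9 and 14.6 CPM) and PDGFRB (4.82 and 6.06 CPM) were not called. The endothelial list lay at 1.16 to 1.76 CPM over all libraries, and the leukocyte list at 0.160 to 0.422 CPM. Their part in the results below was not tested. In bulk libraries, fewer cells of a type and less RNA per cell cannot be told apart.

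Most mitochondrial ribosomal protein genes had log2 fold changes a little below 0 with the STAT3 shRNA, and a minority passed the test. All 78 passed the filter on low counts and were tested together with the rest of the table. At a false discovery rate (FDR) of 0.05, 13 of 78 (16.7%) were lower, while 8.13% of the 14999 genes tested were lower. None was higher, with 0 of 78 by edgeR, DESeq2 or limma-voom and 2 at an unadjusted edgeR p under 0.05, while 9.39% of all genes tested were higher. The median log2 fold change (STAT3 shRNA over control) was -0.27 over the mitochondrial ribosomal protein genes and -0.01 over all genes tested. It was below 0 in 70 of the 78, against 50.9% of all genes. In 27 members every STAT3 shRNA library lay below every control library (34.6%, against 17.2% of all genes), and in 3 members every one lay above (18.5% of all genes). With libraries scaled by their totals these counts were 15 members below (11.3% of all genes) and 4 above (25.2% of all genes). The count of lower members depended on single libraries: it was 36, 4 and 7 without control library 1, 2 and 3, and 1, 7 and 4 without STAT3 shRNA library 1, 2 and 3. The share of all genes lower was 13.1, 4.58 and 7.29% without those control libraries and 4.36, 6.48 and 4.39% without those STAT3 shRNA libraries. The median stayed between -0.17 and -0.32 in these 6 fits. Over other settings, 6 members were lower with library totals (5.83% of all genes), 8 with upper-quartile factors (6.71%), 8 with the library number as a block (7.12%), 18 with DESeq2 (8.41%), and 13 with median-ratio factors (8.2%), no filter (4.97%), a stricter filter (8.65%) and limma-voom (8.21%).

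**Figure D1:**
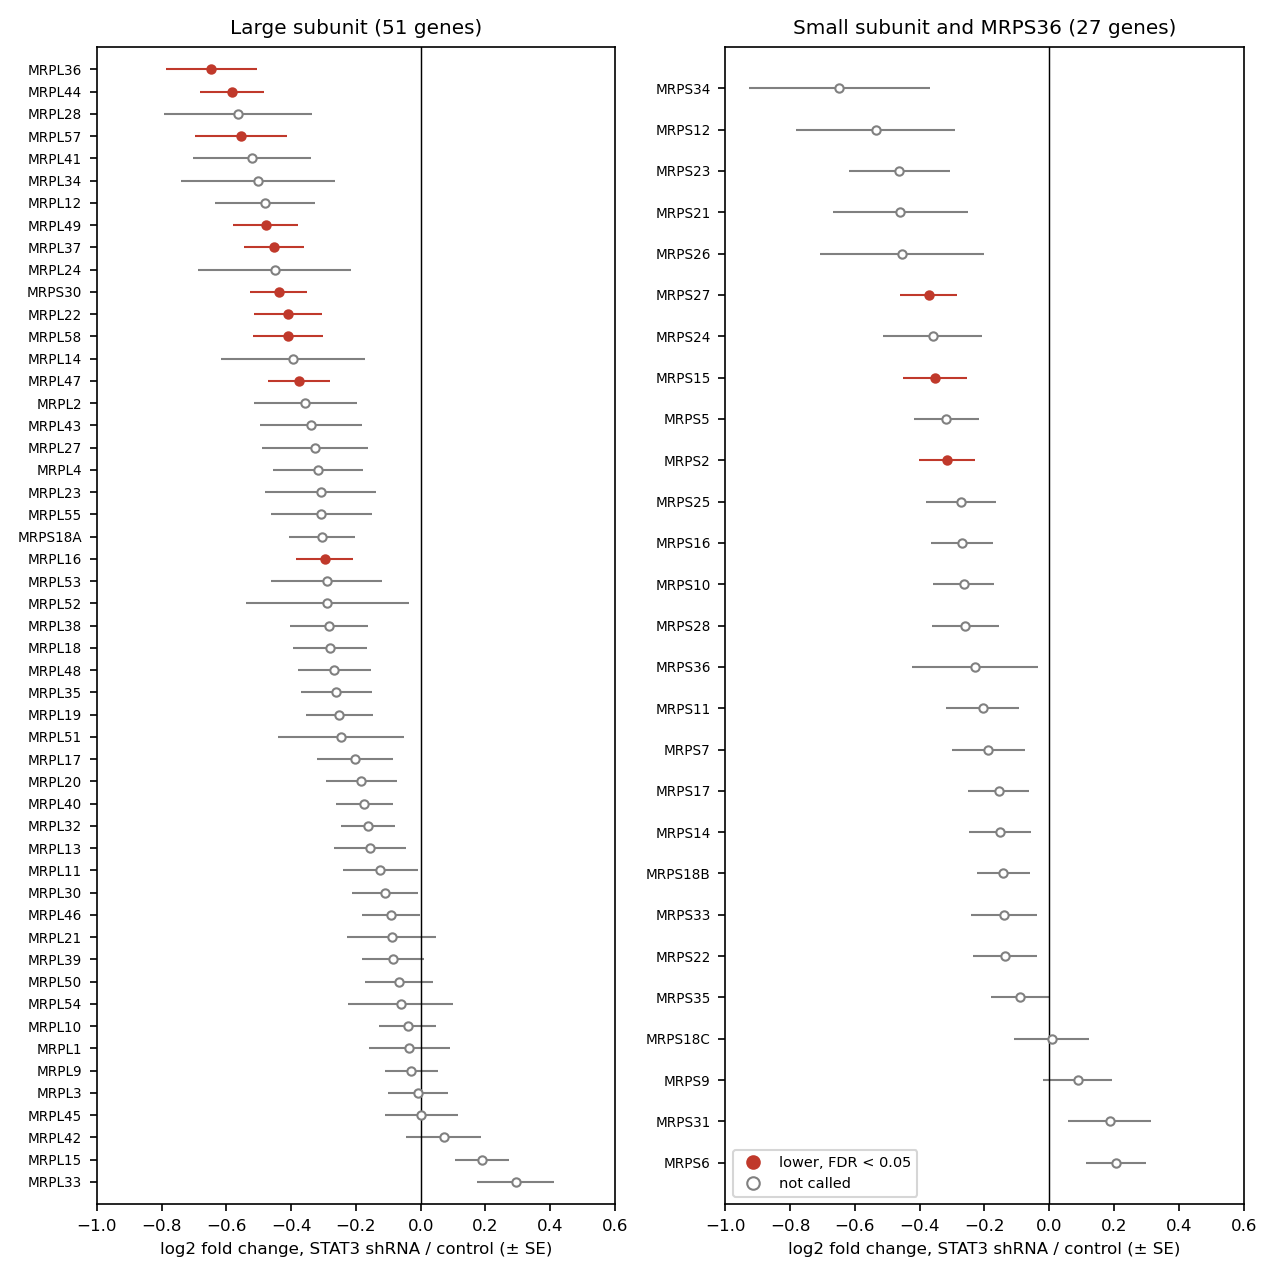
Log2 fold change of STAT3 shRNA over control (x axis, points, with bars of 1 SE from the edgeR fit) for each of the 78 genes, with the 51 of the large subunit on the left and the 26 of the small subunit with MRPS36 on the right. Filled red points are the 13 genes lower at an FDR of 0.05, and 70 of the 78 points lie below 0.

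As a share of all counts, the 78 genes together took 0.526, 0.580 and 0.611% in control libraries 1, 2 and 3 and 0.490, 0.530 and 0.500% in STAT3 shRNA libraries 1, 2 and 3. The groups overlapped, since STAT3 shRNA library 2 lay above control library 1. On the CPM scale their sum was 5343, 5972 and 6486 for control and 4759, 5136 and 4820 for STAT3 shRNA, with no overlap. The mean sum was 5934 ± 572 and 4905 ± 202 CPM (SD, n = 3 per group), so that the STAT3 shRNA libraries held 82.7% of the control level. Without the TMM factors, the mean share of all counts was 88.5% of the control share. The balance of the subunits was similar throughout: the summed level of the large subunit was 1.70 to 1.75 times that of the small subunit in each of the 6 libraries.

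Large-subunit genes were lower in 10 of 51 (19.6%) and small-subunit genes in 3 of 26 (11.5%), against 8.13% of all genes tested. Their median log2 fold changes were -0.28 and -0.26. Of 47 proteins with a bacterial counterpart, 6 (12.8%) were lower with a median of -0.26. Of 30 found only in mitochondrial ribosomes, 7 (23.3%) were lower with a median of -0.29. The difference between these classes was not tested. Their quartiles overlapped, from -0.40 to -0.10 for the large subunit and from -0.36 to -0.14 for the small subunit.

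MRPL44 had the smallest p-value of all members. It encodes a large-subunit protein of the mitochondrial lineage with a ribonuclease III-like fold, in which recessive variants cause infantile cardiomyopathy. It measured 33.7, 33.4 and 32.9 CPM in control libraries 1 to 3, against 21.8, 20.9 and 24.0 CPM with the STAT3 shRNA. The control values lay close together and all STAT3 shRNA values were below them. The mean level was 33.3 ± 0.383 CPM in control and 22.2 ± 1.62 CPM in STAT3 shRNA libraries (SD, n = 3 per group), and the log2 fold change was -0.58 ± 0.099 (SE; edgeR, adjusted p = 0.0036). It was the only member lower in each of 15 alternative fits, with adjusted p from 7.03e-05 to 0.0302. Its exons share 225 bases with an antisense gene on the opposite strand, and without a known strand setting reads of both cannot be told apart.

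Among the other proteins found only in mitochondrial ribosomes, MRPS30, a large-subunit protein by position, measured 237, 208 and 206 CPM in control libraries 1 to 3, against 159.7, 154 and 166 CPM with the STAT3 shRNA, or -0.44 ± 0.089 as log2 fold change (edgeR, adjusted p = 0.00887). MRPL37 measured 194, 208 and 235 CPM against 156, 150.2 and 159 CPM, with -0.45 ± 0.093 (adjusted p = 0.00987). MRPL49 measured 89.2, 89.2 and 107 CPM against 64.9, 68.3 and 71.4 CPM, with -0.48 ± 0.10 (adjusted p = 0.0105). In each of these genes the STAT3 shRNA libraries lay wholly below the control libraries, and the calls ended only without STAT3 shRNA library 1, with adjusted p of at most 0.0705. MRPL37 shares 32 exon bases with SSBP3 on the opposite strand, and MRPL49 shares 114 with FAU, a cytosolic ribosomal protein gene on the opposite strand. MRPL57, a small protein of the large subunit, measured 35.8, 41.8 and 51.6 CPM against 26.6, 31.3 and 30.2 CPM, with -0.55 ± 0.14 (adjusted p = 0.0264). MRPL58, a peptidyl-tRNA hydrolase that is also built into the large subunit, measured 29.3, 34.5 and 35.4 CPM against 25.9, 23.8 and 25.03 CPM, with -0.41 ± 0.11 (adjusted p = 0.0300). Neither gene overlapped between groups, although control library 1 came close to the STAT3 shRNA values in both. MRPS27, a small-subunit protein with pentatricopeptide repeats, measured 198, 179.7 and 178 CPM against 147, 133 and 149 CPM, with -0.37 ± 0.088 (adjusted p = 0.0188), and its groups did not overlap.

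Members with bacterial counterparts included the largest fitted fall of a called gene, in MRPL36, which belongs to the large subunit. MRPL36 measured 80.4, 99.9 and 115 CPM in control libraries 1 to 3, against 61.2, 70.8 and 57.0 CPM with the STAT3 shRNA, or -0.65 ± 0.14 as log2 fold change (edgeR, adjusted p = 0.0129). The control libraries spread widely but stayed above all STAT3 shRNA libraries. MRPL22, whose bacterial counterpart lines the exit tunnel for the new protein, measured 56.8, 64.5 and 69.9 CPM against 49.4, 49.5 and 44.98 CPM, with -0.41 ± 0.10 (adjusted p = 0.0256). MRPL47, the counterpart of a bacterial protein at the mouth of that tunnel, measured 54.0, 52.8 and 48.5 CPM against 42.4, 37.2 and 40.1 CPM, with -0.38 ± 0.097 (adjusted p = 0.0270). Both had no overlap between groups. MRPL47 shares 124 exon bases with ACTL6A on the opposite strand.

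The called genes nearest the threshold were of the same kind. MRPS2, a small-subunit protein, measured 118, 118 and 132 CPM against 101, 99.5 and 94.5 CPM, with -0.32 ± 0.087 (edgeR, adjusted p = 0.0359). MRPS15, also of the small subunit, measured 114, 127 and 137 CPM against 97.2, 106 and 93.4 CPM, with -0.35 ± 0.099 (adjusted p = 0.0394). MRPL16 of the large subunit measured 65.8, 63.0 and 66.4 CPM against 53.7, 49.5 and 55.7 CPM, with -0.30 ± 0.089 (adjusted p = 0.0495). None of these overlapped between groups, but MRPS2 and MRPL16 each lost the call in 10 of 15 alternative fits and MRPS15 in 8. Of the called genes further from the threshold, MRPL22 and MRPL58 also lost it in 8, MRPL47 in 7, MRPS27 in 5, MRPL57 in 4 and MRPL36 in 3. MRPS2 shares 244 exon bases with an antisense gene. Just above the threshold, MRPS5 had -0.32 ± 0.10 (adjusted p = 0.0608), MRPL12, of the flexible stalk that recruits translation factors, -0.48 ± 0.15 (adjusted p = 0.0625), and MRPS18A -0.31 ± 0.10 (adjusted p = 0.0708). MRPL12 shares 701 exon bases with another gene on the same strand, so the assignment of its reads is uncertain. MRPS18A shares 604 with RSPH9 on the opposite strand.

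**Figure D2:**
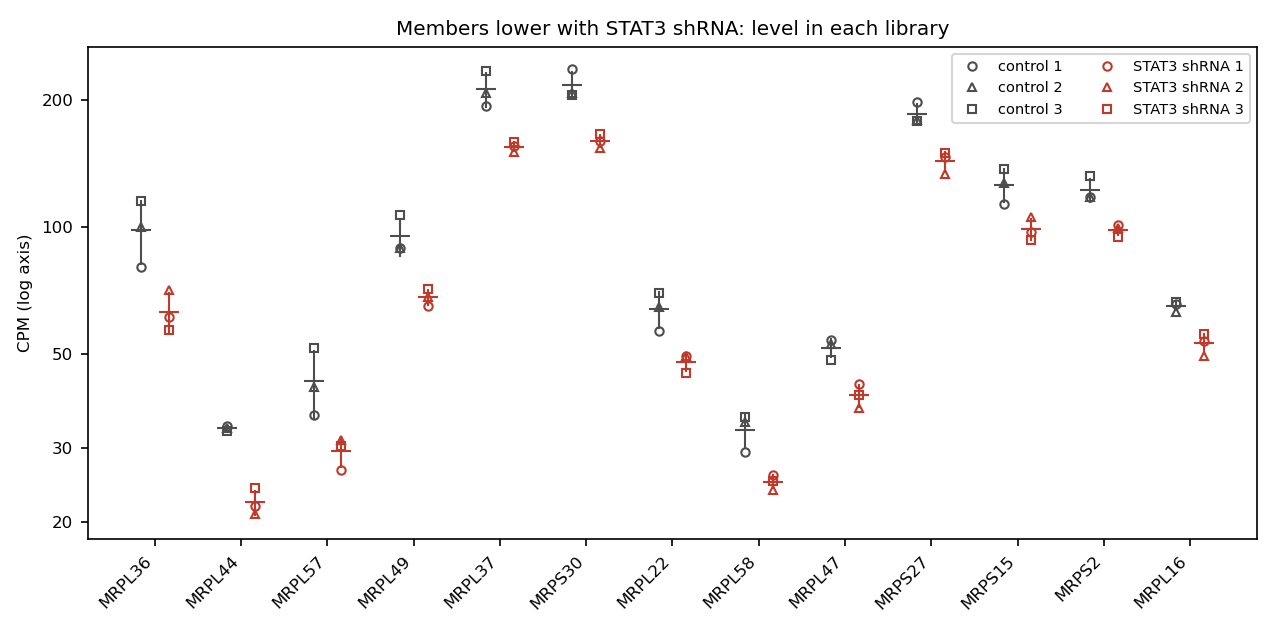
Level in CPM (y axis, log axis) in each library for the 13 mitochondrial ribosomal protein genes lower at an FDR of 0.05, with symbols for libraries 1 to 3, grey for control and red for STAT3 shRNA, and horizontal marks and bars for mean and SD (n = 3 per group). The groups do not overlap in any of the 13, which is no separate support, since the test picked these genes from the same values. Their STAT3 shRNA means are 63.9 to 81.4% of the control means.

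The fall of the called genes was 1.23- to 1.56-fold, and the size of the difference did not separate them from the rest. Of the 65 members that were not called, 10 had a log2 fold change at or below the median of the called genes, -0.41. MRPS34, of the small subunit, had the lowest value of all members, -0.65 ± 0.28 (edgeR, adjusted p = 0.165). It measured 114, 182 and 234 CPM in control libraries 1 to 3, against 97.9, 145 and 95.03 CPM with the STAT3 shRNA, so STAT3 shRNA library 2 exceeded control library 1. MRPL28 of the large subunit had a like pattern, with 63.5, 95.9 and 116 CPM against 56.4, 76.8 and 52.9 CPM, with -0.56 ± 0.23 (adjusted p = 0.135; named after its values were seen). In both genes control library 3 was highest and STAT3 shRNA libraries 1 and 3 were lowest. MRPL28 shares 223 exon bases with TMEM8A on the same strand.

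Per kilobase of transcript, the most abundant large-subunit members were MRPL51 at 181, MRPL49 at 160.1, MRPL3 at 139.6 and MRPL12 at 139 CPM per kilobase, and the most abundant small-subunit members were MRPS24 at 172, MRPS34 at 140.2, MRPS27 at 119.9 and MRPS15 at 112 (mean level over 6 libraries). MRPL51, which shares 463 exon bases with NCAPD2 on the opposite strand, showed no call, with 81.4, 119 and 124 CPM against 79.6, 115 and 79.4 CPM (log2 fold change -0.25 ± 0.19, edgeR, adjusted p = 0.429). MRPS24 had -0.36 ± 0.15 (adjusted p = 0.143), and it shares 606 exon bases with a read-through gene on the same strand. MRPL3, which in bacteria lies near the site where peptide bonds form, measured 238, 217 and 209 CPM against 222, 203 and 235 CPM, with -0.01 ± 0.092 (adjusted p = 0.966). Its groups overlapped in most of their range. MRPS31 and MRPS36 had the lowest CPM, with means of 12.4 ± 0.822 and 19.5 ± 4.49 for control and 14.1 ± 1.53 and 16.7 ± 3.47 for STAT3 shRNA (SD, n = 3 per group), and neither was called (adjusted p = 0.357 and 0.465). The limit that a count of 0 allows was 0.175 CPM in the library with the fewest counts (3 counts, counting error only), so every member was far above the limit of detection.

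The 3 members with every STAT3 shRNA library above every control library were MRPL33, MRPL15 and MRPS6, named after their values were seen. MRPL33, a large-subunit protein, measured 29.9, 33.0 and 39.4 CPM in control libraries 1 to 3, against 40.7, 43.9 and 40.7 CPM with the STAT3 shRNA, with the largest value of any member, 0.29 ± 0.12 (edgeR, adjusted p = 0.125). It was called higher with libraries scaled by their totals (adjusted p = 0.0389) and without control library 3 (adjusted p = 0.0243), and in none of the other alternatives. MRPL15 had 0.19 ± 0.083 (edgeR, adjusted p = 0.158) and MRPS6 0.21 ± 0.092 (adjusted p = 0.163). MRPS6 shares 176 exon bases with SLC5A3 and 294 with another gene, both on the same strand.

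Promoter sequence was described for 69 of the 78 genes, those with a RefSeq window (GRCh38.p14) from 250 bases before to 50 after a transcription start. Short motifs were searched on both strands. The 9 motifs searched were chosen after values were seen. CCGGAAG (ETS factors, such as the GABP complex) occurred in 30 members (43.5%), against 12.2% of all genes with a window and 16.5% of protein-coding genes, and in 3 of the 13 lower and 27 of the 56 other members. AAGATGGC (YY1) occurred in 21 members (30.4%, against 3.52 and 4.66%), 6 of them lower and 15 not. The motif of NRF1, a nuclear respiratory factor, searched as GCGC, then A and any base, then GCGC, occurred in 9 (13.04%, against 6.98 and 9.67%), 2 of them lower and 7 not. TTCCNGGAA (STAT factors) occurred in 2 (2.90%, against 1.44 and 1.46%), and the looser TTCNNNGAA in 8 (11.6%, against 9.38 and 8.98%), with 0 of the lower genes in either. The E-box CACGTG occurred in 9 members (13.04%, against 8.77 and 10.9%), 5 of the 13 lower genes and 4 of the 56 others. CCAAT occurred in 23 (33.3%, against 39.7 and 42.1%), 7 of them lower and 16 not. The GC box, searched as GGGG, then C, then GGGG, occurred in 18 (26.1%, against 18.5 and 26.2%), 4 of them lower and 14 not, and the ZNF143 motif, searched as ACTACAA, any base, then TCCC, in 2 (2.90%, against 1.15 and 1.72%), neither lower. The difference between lower and other members was not tested. A match is a description of letters only. CCGGAAG lay close to the start: 25 of its 45 matches, counted over all windows of a gene, began within 50 bases before it. AAGATGGC lay mostly in transcribed sequence: 16 of its 24 matches began after the start on the gene's strand, and 8 before it. Stretches upstream of 5 members, picked to show lower genes with and without such a match and MRPL3, follow on the gene's strand, 5′ to 3′, with matches of CCGGAAG, AAGATGGC, the NRF1 motif and TTCCNGGAA in capitals; all bases lie outside annotated exons.
MRPL47 (lower; chr3:179604655-179604701, minus strand, CCGGAAG): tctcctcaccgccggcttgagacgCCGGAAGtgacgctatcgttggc
MRPL58 (lower; chr17:75012570-75012669, plus strand, CCGGAAG): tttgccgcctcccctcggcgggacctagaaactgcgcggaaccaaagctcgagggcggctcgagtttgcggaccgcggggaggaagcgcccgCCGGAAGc
MRPL36 (lower; chr5:1799896-1799995, minus strand, NRF1 motif read on the other strand): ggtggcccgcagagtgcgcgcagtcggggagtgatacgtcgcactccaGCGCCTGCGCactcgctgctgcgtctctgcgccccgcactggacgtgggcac
MRPL37 (lower; chr1:54200067-54200166, plus strand, none of the 4 marked motifs, CCAAT left unmarked): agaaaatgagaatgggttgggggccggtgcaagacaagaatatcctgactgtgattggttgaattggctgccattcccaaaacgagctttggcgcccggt
MRPL3 (log2 fold change -0.01, not called; chr3:131502984-131503083, minus strand, CCGGAAG): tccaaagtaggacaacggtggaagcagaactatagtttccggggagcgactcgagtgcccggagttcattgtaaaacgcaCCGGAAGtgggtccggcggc

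The spread within groups was wide for many members and in some pairs of libraries followed the base composition of their transcripts. The log2 ratio of control library 3 to control library 1 ran from -0.39 to 1.03 over the 78 genes with a median of 0.28. In 47 of them it exceeded the difference between the groups in size, as it did in 63.1% of 8814 protein-coding genes at or above the lowest member's level, so 47 of 78 (60.3%) does not set the members apart. None of the 47 was among the 13 lower genes, which the test favours for small spread. Across the 78 genes this ratio had a Pearson correlation of 0.72 and a Spearman correlation of 0.72 with GC content, and the ratio of STAT3 shRNA library 2 to library 3 had 0.59 and 0.64. Over those protein-coding genes the same correlations were 0.72 and 0.77 for the control pair and 0.63 and 0.69 for the STAT3 shRNA pair. The ratio of control library 2 to library 1 had 0.58 and 0.63 over the members. For STAT3 shRNA library 1 to library 3 they were 0.03 and 0.04 over the members and 0.14 and 0.18 over those protein-coding genes. That last ratio exceeded the group difference in size in 10 of 78 members (12.8%), against 24.8% of those protein-coding genes. Genes within a library are not independent replicates, and all values share the same 6 libraries. The log2 fold change between groups had correlations of -0.50 and -0.52 with GC content over the members and -0.18 and -0.27 over those protein-coding genes. Members above the median GC content of 50.3% had a median log2 fold change of -0.32 with 6 of 39 (15.4%) lower. The other 39 had -0.16 with 7 (17.9%) lower, against 8.13% of all genes tested. With a smooth trend of each library against GC content taken out, an alternative added after the data were seen, 21 members were lower, against 12.4% of all genes, 11 of them among the 13, and the median was -0.22.

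**Figure D3:**
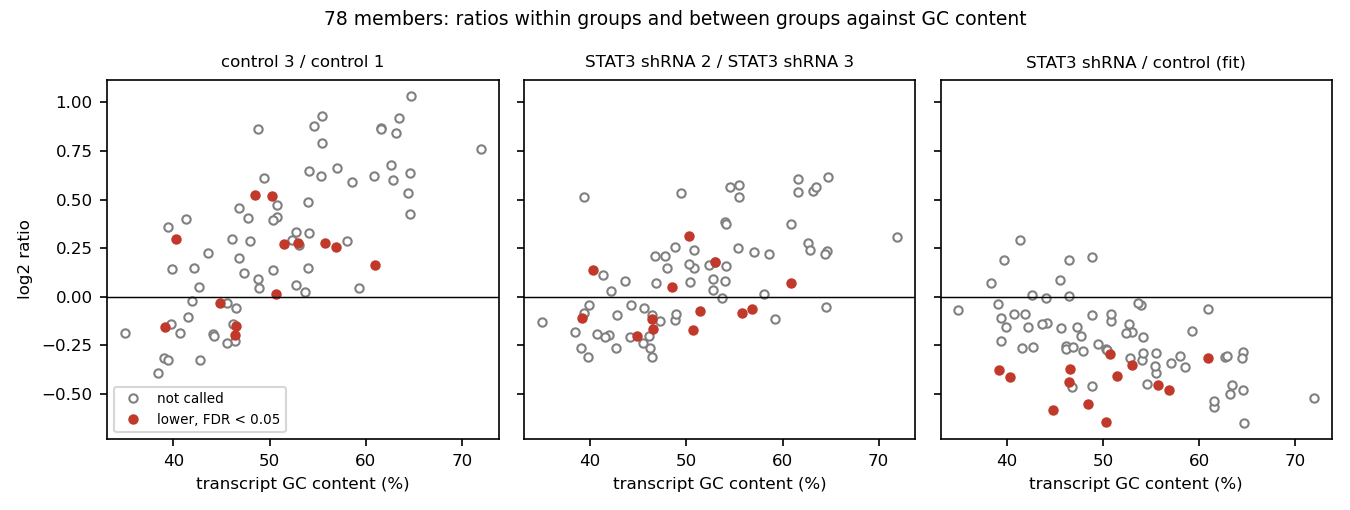
Transcript GC content in percent (x axis) against the log2 ratio (y axis) of control library 3 to 1, of STAT3 shRNA library 2 to 3, and of STAT3 shRNA to control in the fit, for the 78 genes, with the 13 lower at an FDR of 0.05 in red. Both within-group ratios shown rise with GC content (Pearson correlation 0.72 and 0.59) and the fold change between groups falls with it (-0.50). The ratio of STAT3 shRNA library 1 to 3, not shown, had a correlation of 0.03.

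MRPL44 and MRPL33 lay among neighbours whose log2 fold changes had the same sign as their own. For 75 members with 20 tested genes on each side, the median log2 fold change of these 40 neighbours was computed. It was -0.64 for MRPL44 on chromosome 2, where 21 of the 40 neighbours were lower and 1 higher, and 0.35 for MRPL33, also on chromosome 2, where 18 were higher and 0 lower. For the other members it lay between -0.21 and 0.18, and for 13433 genes of the table with 40 neighbours the 5th to 95th percentile was -0.19 to 0.16. Whether the values of MRPL44 and MRPL33 share a source with those of their neighbours was not tested.

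**Figure D4:**
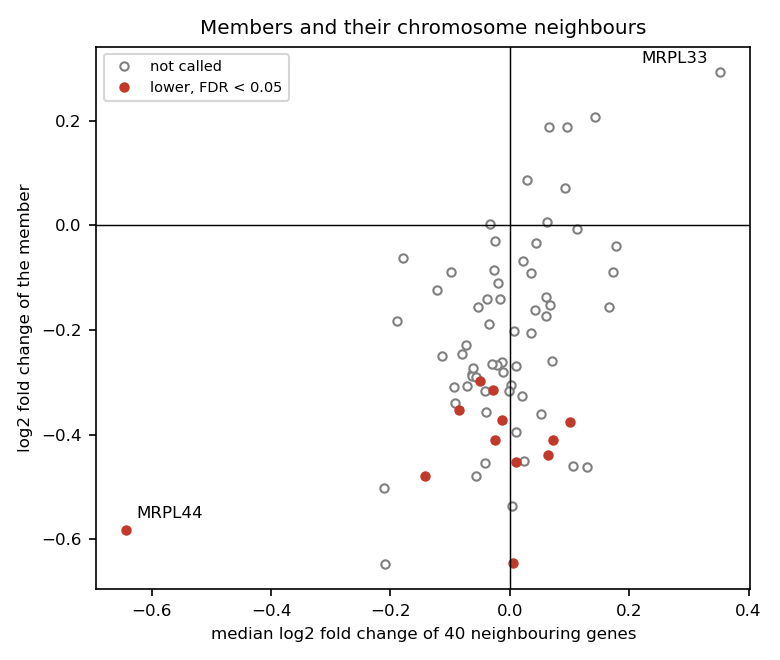
Log2 fold change of each of 75 members (y axis) against the median log2 fold change of the 40 tested genes nearest to it on its chromosome (x axis), with genes lower at an FDR of 0.05 in red. MRPL44 (-0.64 on the x axis) and MRPL33 (0.35) stand apart, and the other members lie between -0.21 and 0.18.

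Shifts of similar size were seen in gene groups outside the mitochondrial ribosome, picked after results were known. Cytosolic ribosomal protein genes were lower in 10 of 78 tested (12.8%), with a median log2 fold change of -0.36. Nuclear genes of the respiratory chain and ATP synthase were lower in 10 of 78 (12.8%), with a median of -0.31. The share of all genes tested that were lower was 8.13%. The difference between these groups and the mitochondrial ribosomal protein genes was not tested.

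Of 5 mitochondrial ribosomal proteins with other names, none was called by edgeR, DESeq2 or limma-voom and 1 had an unadjusted edgeR p under 0.05. In the reported fit 8.13% of all genes tested were lower and 9.39% higher. With edgeR, 3 of the 5 were lower without control library 1 (13.1% of all genes) and 1 with the GC correction (12.4%). The median of the 5 was -0.42. GADD45GIP1 had -0.42 (edgeR, adjusted p = 0.128), and DAP3, a GTP-binding protein of the small subunit, had 0.07 ± 0.078 (adjusted p = 0.604).

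Factors that build mitochondrial ribosomes were lower in 5 of 27 (18.5%, against 8.13% of all genes tested) and higher in 0 (9.39% of all genes). At an unadjusted edgeR p under 0.05, 1 was higher, and 0 were called higher by DESeq2 or limma-voom. With edgeR, 1 was higher with library totals, 1 with upper-quartile factors and 1 with the GC correction. The number lower ranged from 1 without control library 2 (4.58% of all genes) to 10 with the GC correction (12.4%). MTERF4, which recruits a methyltransferase to the ribosomal RNA, measured 26.3, 25.7 and 26.8 CPM in control libraries 1 to 3, against 13.04, 15.3 and 14.4 CPM with the STAT3 shRNA, with -0.88 ± 0.11 (edgeR, adjusted p = 0.000554). It was lower in each of 15 alternative fits. The others were YBEY, a ribonuclease (-0.48, adjusted p = 0.0186), DHX30, an RNA helicase (-0.34, adjusted p = 0.0227), FASTKD2, which binds the large ribosomal RNA (-0.40, adjusted p = 0.0361), and MALSU1, which acts on the maturing large subunit (-0.46, adjusted p = 0.0436). Over the 15 alternative fits, FASTKD2 lost the call in 8, MALSU1 in 7, DHX30 in 4 and YBEY in 3. FASTKD2 on chromosome 2 also stood among lower neighbours, with 26 of 40 lower. MTERF4 lies on chromosome 2 as well, but no neighbour median was computed for it. Whether MTERF4 also stood among lower neighbours was therefore not tested.

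The number of genes of mitochondrial RNA synthesis and stability called lower ranged from 0 without control library 2 to 6 without control library 1. In those fits 4.58 and 13.1% of all genes were lower. In the reported fit 4 of the 18 genes of the list were lower (22.2%, against 8.13% of all genes tested). They were FASTKD1 (-0.53, edgeR, adjusted p = 0.0122), which has 21 of 40 neighbours lower on chromosome 2, ELAC2, which trims tRNA ends (-0.30, adjusted p = 0.0267), SLIRP, an RNA-binding partner of LRPPRC (-0.40, adjusted p = 0.0487), and HSD17B10, a subunit of mitochondrial RNase P (-0.46, adjusted p = 0.0497). SLIRP lost the call in 10 of 15 alternative fits, HSD17B10 in 9, ELAC2 in 8 and FASTKD1 in 2. DESeq2 called 4 of this list lower and limma-voom 2. No gene of the list was called higher by these or by edgeR, and TFAM (0.31) had an unadjusted edgeR p under 0.05. With edgeR, 1 was higher with library totals, 1 without control library 1 and 1 with the GC correction. None of the 14 translation and insertion factors was called by edgeR, DESeq2 or limma-voom, with 3 at an unadjusted edgeR p under 0.05. In the reported fit 17.5% of all genes tested were called. With edgeR, 1 of the 14 was lower without control library 1 (13.1% of all genes) and 1 with the GC correction (12.4%). The elongation factor TUFM had -0.27 ± 0.10 (adjusted p = 0.102) and the insertase OXA1L -0.14 ± 0.086 (adjusted p = 0.297).

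Among 10 regulators of nuclear genes for mitochondria, 1 was higher (PPARGC1A) and 1 lower (PPARGC1B), and the others were not called. Of all genes tested, 9.39% were higher and 8.13% lower, so these counts do not set the list apart. PPARGC1A, a coactivator of mitochondrial biogenesis, measured 10.5, 9.29 and 7.70 CPM in control libraries 1 to 3, against 18.7, 14.2 and 17.2 CPM with the STAT3 shRNA, with 0.87 ± 0.16 (edgeR, adjusted p = 0.00538). It was higher in each of 15 alternative fits. Its relative PPARGC1B measured 13.3, 13.8 and 11.9 CPM against 8.79, 8.45 and 10.0 CPM, with -0.51 ± 0.13 (adjusted p = 0.0256), and lost the call in 7 of 15 alternatives.

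For the messenger RNAs that these ribosomes translate, no difference was called. None of the 13 protein genes of the mitochondrial genome was called by edgeR, DESeq2 or limma-voom, none had an unadjusted edgeR p under 0.05, and their median log2 fold change was 0.02. In the reported fit 17.5% of all genes tested were called. Without control library 1, 1 of the 13 was lower with edgeR, against 13.1% of all genes. MT-CO1, a core subunit of cytochrome c oxidase, measured 11401, 8040.3 and 8292 CPM in control libraries 1 to 3, against 11164, 6812 and 10181 CPM with the STAT3 shRNA, with 0.02 ± 0.20 (edgeR, adjusted p = 0.955). Its groups overlapped in part. MT-CO3 had -0.11 ± 0.15 (adjusted p = 0.657). The ribosomal RNA partners could not be described: MT-RNR1 had 0 to 30 counts per library and MT-RNR2 had 2 to 168.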

How the data were processed

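Gene counts of 6 libraries (3 control shRNA, 3 STAT3 shRNA) were used as deposited by the authors, as whole-number counts per gene with no visible normalization. The aligner, counter, build, library kit and strand setting were not given in the sources used here. Groups and library numbers came from the titles. Rows without an Ensembl identifier (1032, 0.787% of counts) stayed in the fit.

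Counts were tested in R 4.3.3 with edgeR 4.0.16: filterByExpr (minimum count 10, minimum total 15), TMM scaling, a robust two-sided quasi-likelihood F test on group, and Benjamini-Hochberg adjustment over all 14999 genes tested. SE was the log2 fold change divided by the square root of F. DESeq2 1.42.0 and limma-voom (limma 3.58.1) were alternatives. GENCODE 29 (GRCh38) gave gene type, order, overlaps, length and GC content, matched by identifier for all 78 genes. Length and GC content were medians over a gene's basic protein-coding transcripts, chosen after the longest transcript proved unusual for a member. Neighbour windows, GC splits, promoter motifs and the 2 comparison groups of cytosolic and respiratory genes were likewise chosen after values were seen. The printed promoter stretches were narrowed to 5 after it was known which held a match.

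The members and lists were chosen with earlier results of these data known. Named genes were every called member, the 4 most abundant per kilobase in each subunit, the 2 lowest, the 3 nearest the threshold, and up to 6 called genes of each other list, or, where none was called, the 2 most abundant. The procedure was tested on simulated counts under 2 designs with 3 seeds each. Fold changes were recovered in both. The share of false calls stayed under the FDR when genes followed the dispersion trend and exceeded it when each gene kept its own dispersion estimate, which bears most on calls near the threshold. Libraries of a group differed by 4.20 to 43.0 in chi-square per degree of freedom, which is more than sampling noise, so none was 1 sequenced library deposited again. Whether libraries are repeat preparations of 1 culture is not known.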

Additional observations from a re-analysis of the deposited data

How the results depend on the processing

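Beside the reported fit, 14 alternatives were run, and 1 more that was added after the data were seen. The count of lower members (13) was 6 with library totals, 8 with upper-quartile factors, 18 with DESeq2, 21 with the added GC correction, and 13 with median-ratio scaling, without a filter, with a stricter filter and with limma-voom. Leaving out 1 library gave 1 to 36 lower and 0 to 1 higher. With library totals 1 member was higher. Genes called in the whole table (2627) ranged from 1462 to 4098 without 1 library and came to 4134 with the GC correction. The median stayed between -0.17 and -0.32. The cause of these changes was not tested. Of the 13 lower genes, 1 kept its call in all 15 alternatives, 3 lost it in 1, 3 in 3 to 5 and 6 in 7 or more. Deviations of same-numbered libraries from their group means had correlations of 0.28, 0.19 and -0.23. Those of libraries with unlike numbers ran from -0.46 to 0.33. With 3 libraries per group, these values cannot tell whether library numbers mark pairs. With the replicate block 8 members were lower, 7 of them among the 13. Of genes never called, MRPL3 (log2 fold change -0.01) changed sign to 0.088 with library totals and 0.045 with upper-quartile factors, and ranged from -0.058 to 0.061 when 1 library was left out. MT-CO1 (0.02) turned to -0.0047 with the GC correction and ranged from -0.12 to 0.21 when 1 library was left out, and MT-CO3 (-0.11) from -0.22 to 0.035. With identified genes outside the mitochondrial genome as denominator, the share of the members in the STAT3 shRNA libraries was 0.529% rather than 0.507%. Members had at least 11.5 CPM in every library, and libraries of a group differed by more than sampling noise.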
